A study of Mus musculus with 4 samples.

Results

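The 9 genes described here encode enzymes of fatty acid synthesis and proteins tied to it: Slc25a1, Acly, Acss2, Acaca, Acacb, Fasn, Thrsp, Pnpla3 and Mcat. They were taken as every gene probe on the arrays whose gene name, or the gene named by its accession, was one of these symbols. That gave 18 of the 41174 gene probes, and 9 of the 28786 gene names. All 9 genes were measured in the fetal and in the maternal liver.

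Fatty acid synthesis turns surplus carbohydrate into palmitate in the cytosol of liver and fat cells. Citrate leaves the mitochondrion and is split into acetyl-CoA, a carboxylase converts acetyl-CoA to malonyl-CoA, and fatty acid synthase joins these units with electrons from NADPH. In the adult liver the genes of the pathway are known to be switched on by feeding and insulin, through the transcription factors SREBP-1c and ChREBP, and to be low in fasting.

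The study compared food deprivation with control in the liver of fetal and of maternal C57BL/6J mice, by its title in search of genes for the developmental origins of health and disease. The 4 groups were control fetus, food-deprived fetus, control mother and food-deprived mother, with no transgene or drug named. Housing was on a 12 h light and 12 h dark cycle with CE-2 chow and tap water. No source used here gives the length of food deprivation, the stage of pregnancy, the age of the mothers or the sex of the fetuses.

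RNA of 5 to 10 animals was pooled for each condition. The labels number the pooled samples 1 and 2, and the number goes with the dye orientation; the series' design text speaks of pooled RNA that was dye-swapped, so each condition was read here as 1 pool, although separate pools are possible. Fetal food-deprived and control RNA shared 2 two-colour Agilent arrays with the dyes exchanged (Cy5, red, and Cy3, green), and maternal RNA likewise. On array 1 food-deprived RNA was in Cy5, and on array 2 in Cy3. The SD given with a mean is over the 2 arrays, which is technical spread if the pools are the same and also holds spread between pools if they are not. No test was made on this reading, and no p-value is given.

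Each response is the food-deprived over the control signal on a log2 scale, 0 meaning no difference. A gene is said to have risen or fallen when the mean of both arrays reached 2-fold and each array reached 1.5-fold in the same direction. A probe was measured when 1 of the conditions was well above background on both arrays, as the scanner software called it, and the brightest measured probe stood for its gene. Between 53.2% and 69.7% of the gene spots of an array and dye were well above background, and no gene spot was saturated. The between-array SD was taken over all genes from the difference of the 2 values of a comparison. It was 0.15 in the fetus, 0.16 in the mother, 0.13 for the difference of both responses and 0.22 for control levels. In the latter pair each value is itself a maternal array minus a fetal array. With the sign of the second array reversed, no gene was called in either response or in their difference, and 27 were called in the control levels. Control levels need no turning, so those 27 differ in opposite directions in Cy3 and Cy5. All 8 hepatocyte markers on the array were well above background in every condition. Of 10 adipocyte markers, 5 were so in the fetus and 4 in the mother, while Adipoq, Lep, Plin1, Cfd and Retn were so in none. In bulk RNA, fewer cells of a type and less RNA per cell cannot be told apart.

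In the fetal liver, 4 of the 9 genes fell and none rose: Fasn, Pnpla3, Acss2 and Acly. Over all 18055 genes measured in the fetus, 0.266% fell and 0.465% rose, and 0.731% did either. In the maternal liver, 3 of the 9 genes fell, Thrsp, Fasn and Acss2, and none rose. Over all 16147 genes measured in the mother, 1.88% fell and 1.56% rose, and 3.44% did either. The 9 genes had a median of -0.79 in fetal and of -0.46 in maternal liver, against 0.00 and -0.01 over all genes. With the scanner software's processed signals the medians were -1.16 and -1.36, so their order is not settled; the maternal -0.46 is the value of Pnpla3, whose food-deprived spots were not well above background. Mcat was the only gene above 0 in the fetus, and Acacb the only one above 0 in the mother.

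**Figure D1:**
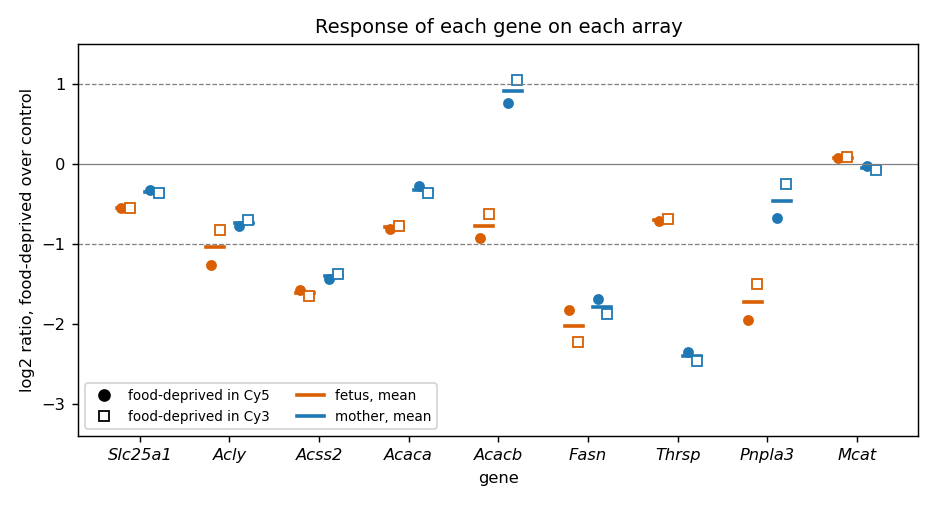
Log2 ratio of food-deprived over control (vertical axis) for each of the 9 genes (horizontal axis) in fetus (orange) and mother (blue); filled circles are array 1, open squares array 2, bars their mean, and dashed lines mark 2-fold. Fasn and Acss2 lie below -1 on all 4 arrays, Thrsp lies lower in the mother, Pnpla3 lies lower in the fetus, and Acacb lies below 0 in the fetus and above 0 in the mother.

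Slc25a1 is the carrier that brings citrate out of the mitochondrion. Its ratios were -0.56 and -0.55 on the fetal arrays, a mean of -0.55 ± 0.01 (SD, n = 2 arrays). The maternal arrays gave -0.33 and -0.37, a mean of -0.35 ± 0.02 (SD, n = 2 arrays). Neither reached 2-fold.

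Acly, ATP citrate lyase, splits that citrate into acetyl-CoA and oxaloacetate. In the fetus its ratios were -1.26 and -0.82, and the mean of -1.04 ± 0.31 (SD, n = 2 arrays) is a 2.06-fold fall that lay close to the 2-fold limit. Array 2 alone does not reach 2-fold. In the mother the ratios were -0.78 and -0.71, a mean of -0.74 ± 0.05 (SD, n = 2 arrays), or 1.67-fold lower. Both values depend on the background correction. The maternal value was -1.10 with no offset and -1.36 with the scanner software's processed signals, both of which pass the limit. The fetal value was -1.29 and -1.52 under the same settings. A second Acly probe was well above background on at most 1 array per condition and was not measured.

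Acss2 is the cytosolic acetyl-CoA synthetase, which makes acetyl-CoA from acetate. Its brightest probe gave -1.57 and -1.65 in the fetus, a mean of -1.61 ± 0.05 (SD, n = 2 arrays), which is a 3.05-fold fall. In the mother it gave -1.44 and -1.37, a mean of -1.41 ± 0.05 (SD, n = 2 arrays), which is a 2.65-fold fall. The fall was thus of like size in both livers, with a maternal minus fetal difference of 0.21 that did not reach 2-fold.

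The 4 Acss2 probes fell into pairs that read differently, so the first 30 bases of each 60-base probe are shown in lower case with no base singled out, 5′ to 3′, in order along the plus strand of chromosome 2 (probe positions in build mm7, as the files give them; whether they lie in an exon or a UTR was not determined here).
Acss2 A_52_P337928, chr2:155259665-155259724: tgtcagtatgccgatgctttggttgttttg
Acss2 A_52_P97564, chr2:155265786-155265845: agaatctacataggtcaactctctttatag
Acss2 A_52_P566718, chr2:155302999-155303058: tgcccctcacacagtagtactagttgacag
Acss2 A_51_P488399, chr2:155303248-155303310: caaaagcaccagttcttatcttgggcctca

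A_51_P488399 is the probe that stands for the gene, and A_52_P566718 lies within 0.252 kb of it. A_52_P566718 gave -1.17 and -1.35 in the fetus and -0.78 and -0.99 in the mother. Both of these probes were well above background in all 4 conditions. A_52_P337928 and A_52_P97564 lie 43.6 and 37.5 kb before the end of the last probe, and Acss2 spans 44.7 kb in the RefSeq annotation of GRCm38.p6. A_52_P337928 gave 0.01 and -0.04 in the fetus, where it was measured, and A_52_P97564 was well above background on no array.

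These upstream probes were near background in brightness. In control fetal liver the scanner software's processed intensity of A_52_P337928 was 30.3 and 36.3, and that of A_52_P97564 was 5.94 and 12.0. The processed intensity of A_51_P488399 was 5542 and 5706 in the same channels. A ratio at such dim spots is drawn towards 0 by the background correction, so their values near 0 set no limit on a change. With the mean over the measured probes in place of the brightest, the fetal value of Acss2 was -0.96 and missed the 2-fold limit.

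Acaca and Acacb encode the acetyl-CoA carboxylases that make malonyl-CoA. The Acaca product is the cytosolic form that supplies synthesis, and the Acacb product sits at the mitochondrion, where its malonyl-CoA holds back fatty acid import by Cpt1. Acaca had ratios of -0.82 and -0.77 in the fetus, a mean of -0.79 ± 0.03 (SD, n = 2 arrays), or 1.73-fold lower. Maternal ratios were -0.27 and -0.37, a mean of -0.32 ± 0.07 (SD, n = 2 arrays). Both arrays lay below 0 in both livers and neither liver reached 2-fold. With the scanner software's processed signals the fetal Acaca value was -1.16, which passes the limit.

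Acacb had ratios of -0.92 and -0.62 in the fetus, a mean of -0.77 ± 0.21 (SD, n = 2 arrays), or 1.71-fold lower. On the maternal arrays they were 0.76 and 1.05, a mean of 0.91 ± 0.20 (SD, n = 2 arrays), or 1.88-fold higher. Neither response passed the 2-fold limit by itself, although array 2 of the mother alone does. The fetal values lay below 0 and the maternal values above 0. Its control levels were 10.99 and 10.66 in the fetus and 11.13 and 11.28 in the mother on the log2 scale. With food deprivation the fetal levels were 10.06 and 10.04 and the maternal levels 11.89 and 12.33.

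For both carboxylase genes 1 probe was bright and the others dim, and the first 30 bases of each are shown because the gene's value rests on the bright one (lower case, 5′ to 3′, mm7, plus strand; the coordinates of A_52_P595124, A_52_P23177, A_51_P439426 and A_52_P340167 cross an intron).
Acaca A_52_P595124, chr11:84350405-84362820: tcccatccaaacagagggaacatccccacg
Acaca A_52_P23177, chr11:84363852-84364855: gccccacattcccagagtctggtcatactt
Acaca A_51_P439426, chr11:84411918-84415918: tgaaggggaatccaggtacaagataacaga
Acaca A_52_P318040, chr11:84470765-84470824: gaagatgatcataactcgtataacatccag
Acacb A_52_P340167, chr5:113406086-113410171: tggaggcaacagggtcatagagaaggtgct
Acacb A_51_P239236, chr5:113472402-113472462: ataaagggttctttgggcaaggtcctcttg

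A_52_P318040 is the Acaca probe that carried the values above, and the files place it on a cDNA described as having an apparent retained intron. Its processed intensity in control fetal liver was 945 and 870. The 3 other Acaca probes cross introns, and their ratios ran from -0.16 to 0.04 over both livers. The brightest of them, A_52_P595124, was well above background in all 4 conditions, yet its processed intensity in control fetal liver was 61.3 and 51.5. For Acacb the bright probe A_51_P239236 had 6022 and 5198 in control fetal liver, and A_52_P340167 had 13.8 and 21.1. A_52_P340167 was measured in the mother only, at 0.09 and 0.01. The mean over measured probes gives Acaca -0.28 in the fetus and Acacb 0.48 in the mother.

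**Figure D2:**
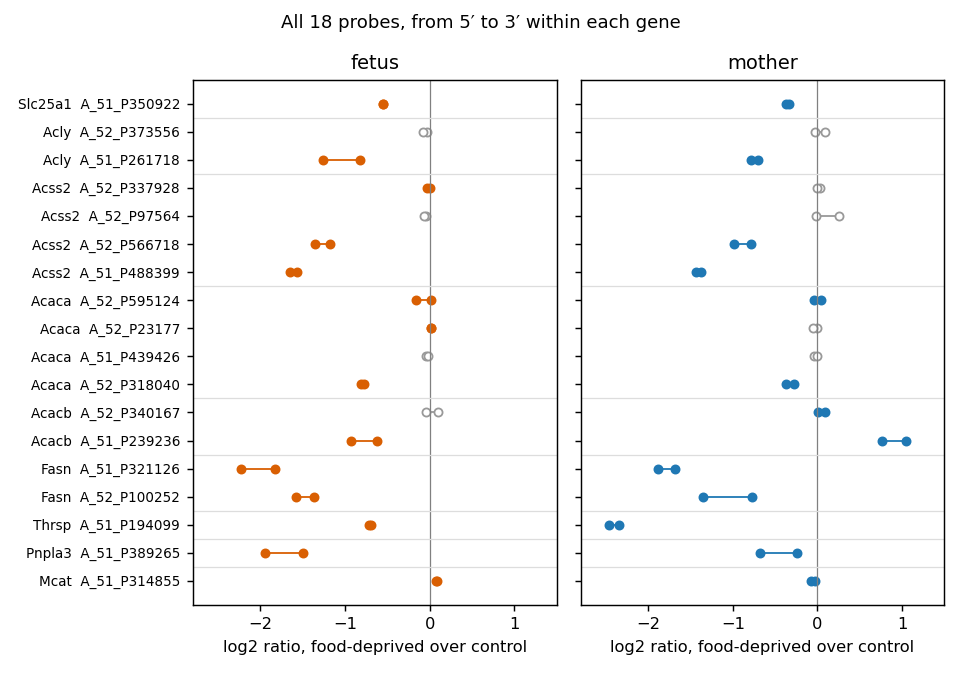
Log2 ratio of food-deprived over control (horizontal axis) for all 18 probes (vertical axis, in 5′ to 3′ order within a gene) in fetus (left, orange) and mother (right, blue); each line joins both arrays, and open grey circles mark probes that were not measured. The bright probes of Acss2, Acaca and Acacb lie away from 0, while their dim probes lie near it; both Fasn probes lie below 0.

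Fasn encodes fatty acid synthase, the enzyme that builds palmitate. In the fetus its ratios were -1.83 and -2.23, a mean of -2.03 ± 0.28 (SD, n = 2 arrays), which is a 4.08-fold fall. That was number 5 from the lowest of 18055 genes. In the mother they were -1.68 and -1.88, a mean of -1.78 ± 0.14 (SD, n = 2 arrays), a 3.44-fold fall and number 63 from the lowest of 16147. Its log2 levels were 14.95 and 14.87 in control fetus and 13.12 and 12.64 in food-deprived fetus. They were 14.27 and 14.08 in control mother and 12.58 and 12.19 in food-deprived mother, so the food-deprived levels lay below the control levels in both dyes and both livers. A second probe, A_52_P100252, gave -1.58 and -1.37 in the fetus and -1.35 and -0.77 in the mother.

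Thrsp, also called Spot 14, is a small protein of lipogenic tissues whose gene follows thyroid hormone and carbohydrate feeding. In the fetus its ratios were -0.72 and -0.69, a mean of -0.70 ± 0.02 (SD, n = 2 arrays), or 1.63-fold lower. Thrsp passed the 2-fold limit in the fetus with the scanner software's processed signals, at -1.15. Its maternal ratios were -2.35 and -2.46, a mean of -2.40 ± 0.08 (SD, n = 2 arrays), a 5.29-fold fall and number 12 from the lowest. Its log2 levels were 8.04 and 8.18 in control fetus and 7.33 and 7.49 in food-deprived fetus. They were 11.38 and 12.05 in control mother and 9.03 and 9.59 in food-deprived mother. The lowest maternal level, with food deprivation, thus remained above the highest fetal level.

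Pnpla3, adiponutrin, is a lipid droplet protein whose gene is a target of SREBP-1c. In the fetus its ratios were -1.95 and -1.5, a mean of -1.72 ± 0.31 (SD, n = 2 arrays), a 3.30-fold fall and number 10 from the lowest. In the mother they were -0.67 and -0.25, a mean of -0.46 ± 0.30 (SD, n = 2 arrays). The food-deprived mother was not well above background on either array, so the size of the maternal response is not settled. The means of the measured levels differed 1.38-fold (log2 means of 7.22 in control and 6.75 with food deprivation). The probe was dim, with processed intensities of 795 and 886 in control fetus and 60.7 and 88.1 in food-deprived fetus. In the mother they were 201 and 200 in control and 11.3 and 32.2 with food deprivation. The log2 ratios of these processed intensities were -3.71 and -3.33 in the fetus and -4.15 and -2.64 in the mother, with the maternal pair resting on food-deprived spots that were not well above background.

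Mcat encodes the malonyl-CoA transferase of the separate mitochondrial pathway of fatty acid synthesis, which supplies lipoic acid. Its ratios were 0.07 and 0.08 in the fetus and -0.03 and -0.08 in the mother. All 4 lay within the between-array SD from 0.

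The promoters of the 5 genes that fell in either liver are shown, as the genes whose fall these data record: 250 bases before the RefSeq start in GRCm38.p6, 5′ to 3′ on the strand of the gene, with capitals where 1 of the 3 short motifs described next occurs on either strand.
Acly, chr11:100528001-100528250, minus strand: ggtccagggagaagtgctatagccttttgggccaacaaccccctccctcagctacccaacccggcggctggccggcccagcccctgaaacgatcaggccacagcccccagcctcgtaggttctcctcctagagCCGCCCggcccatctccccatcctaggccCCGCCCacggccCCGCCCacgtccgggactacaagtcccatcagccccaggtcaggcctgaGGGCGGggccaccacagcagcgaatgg
Acss2, chr2:155517793-155518042, plus strand: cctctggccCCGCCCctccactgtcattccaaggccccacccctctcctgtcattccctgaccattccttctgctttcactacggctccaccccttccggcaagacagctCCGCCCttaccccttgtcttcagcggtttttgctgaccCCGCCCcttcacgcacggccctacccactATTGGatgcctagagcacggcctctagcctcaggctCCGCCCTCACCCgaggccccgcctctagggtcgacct
Fasn, chr11:120824548-120824797, minus strand: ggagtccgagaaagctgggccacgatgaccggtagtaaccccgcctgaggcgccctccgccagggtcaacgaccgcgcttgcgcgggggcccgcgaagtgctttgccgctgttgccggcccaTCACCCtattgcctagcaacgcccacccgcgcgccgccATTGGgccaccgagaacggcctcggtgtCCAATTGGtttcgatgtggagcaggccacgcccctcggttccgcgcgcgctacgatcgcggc
Thrsp, chr7:97417551-97417800, minus strand: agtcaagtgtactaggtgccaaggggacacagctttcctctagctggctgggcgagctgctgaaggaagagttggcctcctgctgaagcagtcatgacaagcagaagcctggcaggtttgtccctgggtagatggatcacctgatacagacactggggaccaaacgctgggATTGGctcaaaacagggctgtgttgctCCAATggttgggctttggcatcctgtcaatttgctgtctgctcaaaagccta
Pnpla3, chr15:84167566-84167815, plus strand: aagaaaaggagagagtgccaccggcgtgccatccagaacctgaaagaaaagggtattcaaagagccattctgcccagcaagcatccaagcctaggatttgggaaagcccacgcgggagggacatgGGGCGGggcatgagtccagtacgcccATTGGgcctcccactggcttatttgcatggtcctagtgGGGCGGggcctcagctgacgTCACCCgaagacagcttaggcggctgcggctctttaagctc

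CCAAT is the box bound by NF-Y, GGGCGG that bound by Sp1, and TCACCC the first part of the sterol regulatory element bound by SREBP; TCACCC was chosen after the windows had been seen. Of the 9 genes, 8 had a window in the RefSeq table; Mcat had none. The windows of Acaca and Acacb start inside the spans of their genes, 65803 and 19197 bases from the outermost start, and are not shown. The start used for Fasn lies 619 bases inside its gene's span, and that for Pnpla3 lies 40 bases inside. TCACCC stood in 3 of the 8 windows, at 128 to 123 bases before the start in Fasn, 31 to 26 in Acss2 and 41 to 36 in Pnpla3, against 13.8% of 32851 windows of all genes. CCAAT stood in 6 of 8, against 33.8%, and Fasn had 3, of which 62 to 58 and 59 to 55 overlap on opposite strands. GGGCGG stood in 4 of 8, against 32.7%, with 4 matches each in Acly, Acss2 and Slc25a1, of which Slc25a1 was called in neither liver, and 2 in Pnpla3. The longer element TCACNCCAC was in none of the 8 windows and in 1.05% of all, and the PPAR element, a repeat of AGGTCA with 1 base between, was in none of the 8 and in 0.0335% of all. The E-box CACGTG, the core of sites for USF and ChREBP, was in the Slc25a1 window alone, against 6.02% of all. Both strands were searched, and a match of letters is not a measured site.

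The maternal and the fetal response were set against each other by subtracting the fetal from the maternal log2 ratio within each dye orientation. Of 9 genes, 3 differed by the same 2-fold rule: Acacb and Pnpla3 were higher in the mother's response and Thrsp lower. Over all 15597 genes, 1.23% were higher, 1.76% lower and 2.99% either. The Acacb differences were 1.69 and 1.68, a mean of 1.68 or 3.21-fold, number 50 from the highest. The Thrsp differences were -1.63 and -1.77, a mean of -1.70 or 3.25-fold, number 49 from the lowest. The Pnpla3 differences were 1.27 and 1.26, a mean of 1.26 or 2.40-fold. The Pnpla3 difference rests on maternal food-deprived spots that were not well above background. With the scanner software's processed signals it was 0.13 and its call was lost. The Acacb and Thrsp differences were called under all 10 alternative settings, at 1.40 to 1.77 and at -1.88 to -1.51. Not all of these settings could alter them. Keeping outliers, changing the filter on dim probes and averaging probes left both values unchanged, and each array alone repeats the array values above.

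The other genes differed by less than 2-fold between mother and fetus. The differences were 0.47 for Acaca, 0.30 for Acly, 0.25 for Fasn, 0.21 for Acss2, 0.20 for Slc25a1 and -0.13 for Mcat. For Acly they were 0.48 in one dye orientation and 0.12 in the other. Those of Fasn, Acly, Acss2 and Slc25a1 turned slightly negative under median centring, at -0.11, -0.05, -0.02 and -0.02, a setting that put the median of all genes at -0.11.

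**Figure D3:**
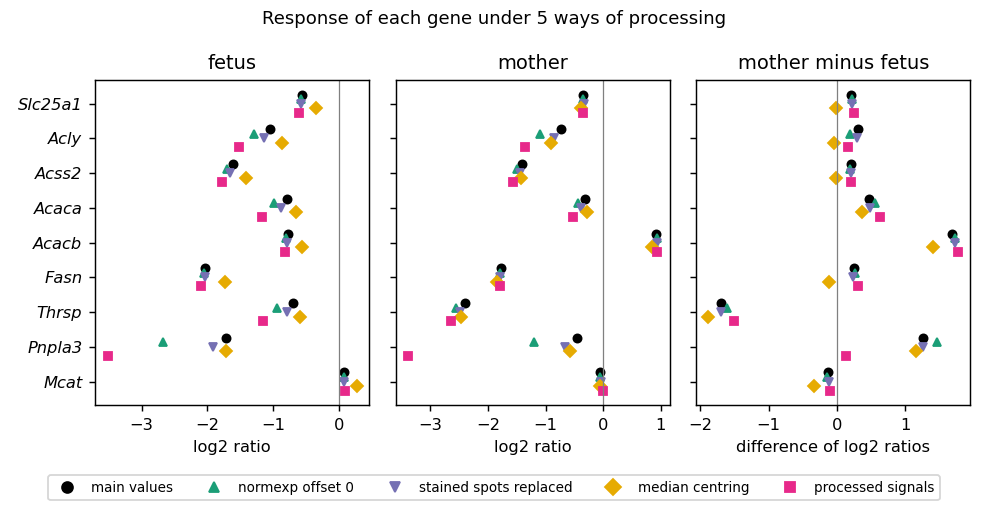
Log2 ratio of each gene in fetus and in mother, and their difference (horizontal axes), under 5 ways of processing shown by symbol and colour. The Pnpla3 values spread from -3.52 to -1.72 in the fetus and from -3.39 to -0.46 in the mother, and its difference falls to 0.13 with processed signals, while the Acacb difference runs from 1.40 to 1.77.

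**Figure D4:**
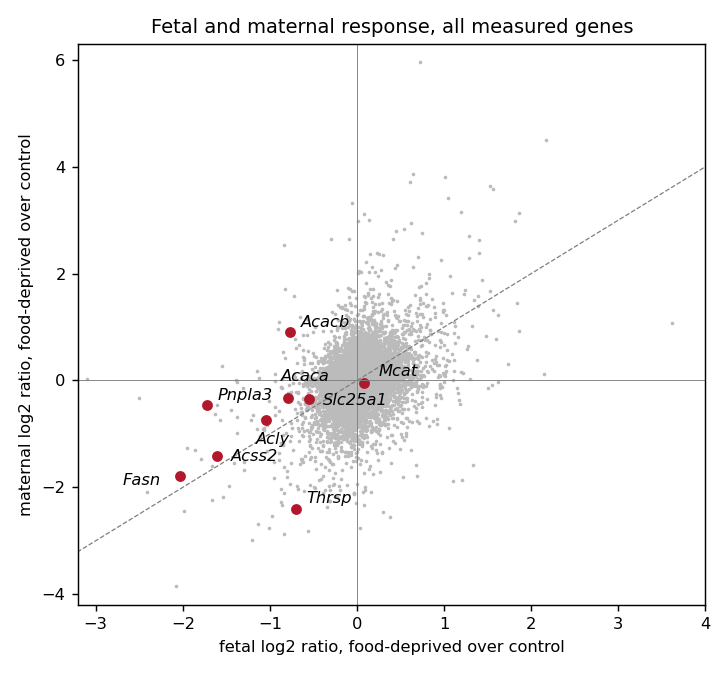
Mean log2 ratio in the fetus (horizontal axis) and in the mother (vertical axis) for every gene measured in both (grey) and the 9 genes (red, labelled); the dashed line marks equal responses. Fasn and Acss2 lie near the line at the lower left, Thrsp lies below it at -0.70 and -2.40, and Acacb lies above it at -0.77 and 0.91.

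Control levels were compared between mother and fetus in equal dyes, Cy3 from array 1 and Cy5 from array 2. Of the 9 genes, Thrsp was higher and Pnpla3 lower in the control mother. The same rule called 9.21% of 18084 genes higher, 10.2% lower and 19.4% either. Thrsp differed by 3.33 and 3.87, a mean of 3.60 or 12.2-fold, and was number 113 from the highest. Pnpla3 differed by -1.04 and -1.18, a mean of -1.11 or 2.16-fold lower. Slc25a1 differed by 0.80 and 0.81, Fasn by -0.68 and -0.80, Mcat by 0.51 and 0.44 and Acacb by 0.14 and 0.62, all under 2-fold. Acss2, at 0.07 and 0.13, and Acaca, at -0.06 and 0.00, were within the between-array SD of 0.22.

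Acly gave no settled order, since its control level was 0.90 lower in the mother in Cy3, a value of -0.90, and 0.64 higher in Cy5. In food-deprived liver the maternal over fetal value of Acacb was 1.82 and 2.30, a mean of 2.06, and that of Thrsp 1.71 and 2.10, a mean of 1.90. The food-deprived livers thus differed more in Acacb, and less in Thrsp, than the control livers did. Markers of other cells also differed between these livers: all 7 erythroid markers measured were lower in the control mother than in the control fetus, with a median of -3.66, and all 5 fetal hepatocyte markers were lower, with a median of -7.26. The latter median is the value of Dlk1, which was not well above background in the control mother. The summed log2 level of the erythroid markers was 17.1 on both arrays in control fetus and 13.6 to 13.8 in control mother, where 5 of the 7 were well above background. Their part in the control levels was not tested.

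**Figure D5:**
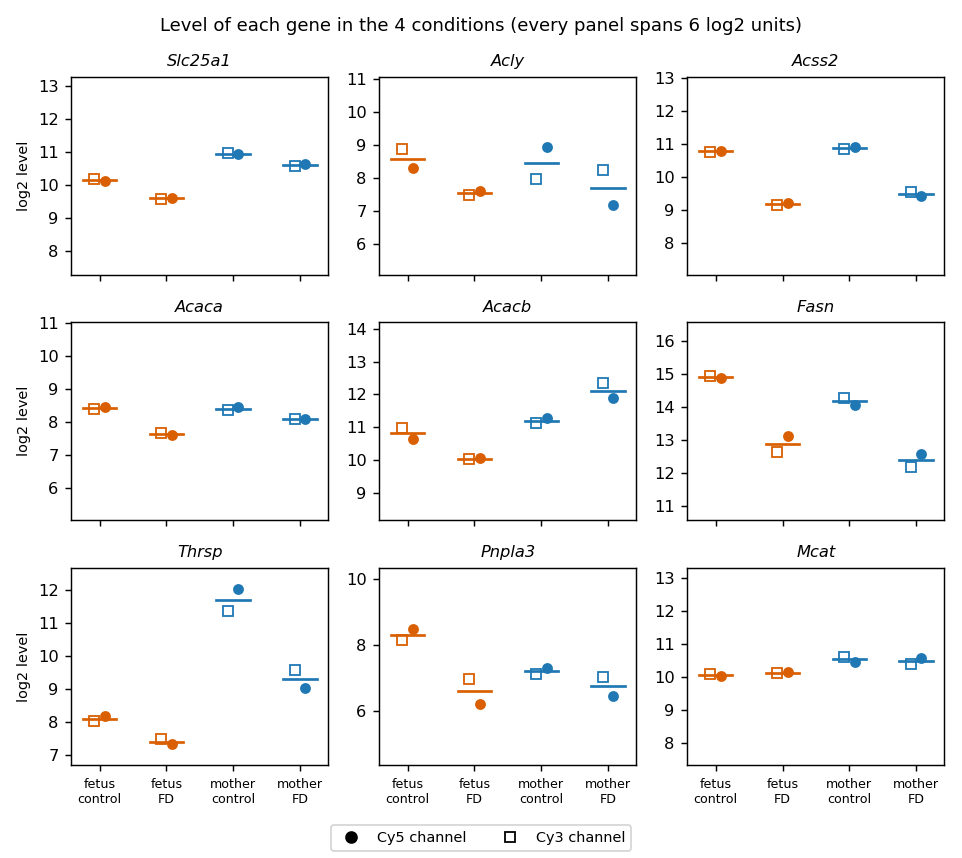
Log2 level after normalisation (vertical axis) of the 9 genes in control and food-deprived (FD) fetus and mother, with filled circles for Cy5, open squares for Cy3 and bars for their mean; each panel spans 6 log2 units around its own middle, so heights compare within a panel and not between genes. Thrsp is high in both maternal conditions, Acacb is highest in the food-deprived mother, and the maternal Acly levels differ by dye.

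The enzymes and regulators around these 9 genes were read from 6 lists of genes. Of 17 regulators of fatty acid synthesis genes measured in the fetus, 1 rose and 1 fell, with a median of 0.00. Srebf1, which encodes SREBP-1, fell, at -1.16 and -1.12, and Ppargc1b, a coactivator of SREBP-1, rose, at 0.91 and 1.14. In the mother 1 of 16 rose and 3 fell, with a median of -0.16. Srebf1 fell there as well, at -2.71 and -2.67, as did Srebf2, at -1.30 and -1.05, and Insig1, a sensor protein that retains SREBP in the endoplasmic reticulum, at -2.34 and -1.74. Insig2, a second retention protein whose liver transcript is known to rise in fasting, rose at 3.27 and 2.63. Srebf1 fell more in the mother, by a difference of -1.55. Mlxipl, which encodes ChREBP, had -0.57 and -0.44 in the fetus and -1.14 and -0.85 in the mother, under the 2-fold limit in both, and its control level was higher in the mother by 2.00.

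Among 12 measured genes that elongate or desaturate palmitate, 4 fell in the fetus and none rose, with a median of -0.56. They were the stearoyl-CoA desaturases Scd1, at -2.33 and -2.50, and Scd2, at -2.44 and -2.57, and the polyunsaturated fatty acid desaturases Fads1, at -1.18 and -0.97, and Fads2, at -1.33 and -0.92. In the mother 2 of 13 fell and 1 rose, with a median of -0.33. Scd1 fell at -1.98 and -2.21, and the elongase Elovl6, which extends palmitate, at -1.53 and -1.09. Elovl5, an elongase of polyunsaturated fatty acids, rose at 1.90 and 1.54, while its fetal values were -0.85 and -0.80.

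The NADPH list, the enzymes that supply reducing power, had no call among 10 genes in the fetus, with a median of -0.19, and none in the mother, with a median of -0.43. Me1, malic enzyme, had a pair of probes, 1 of them under the older symbol Mod1, which are counted as 1 gene. The Me1 probe A_51_P266861 gave -0.97 and -0.81 in the fetus and 1.23 and 0.97 in the mother, where it passed the 2-fold limit. The Mod1 probe A_51_P186601, the brighter in the mother, gave -0.78 and -0.93 in the fetus and 0.78 and 0.28 in the mother, under that limit. Of 14 genes that act on the carboxylases or use malonyl-CoA, 1 rose in the fetus: Trib3, a pseudokinase, at 1.43 and 1.52. In the mother Cpt1a, the mitochondrial import enzyme that malonyl-CoA inhibits, rose at 1.48 and 1.16, and Mid1ip1, a Thrsp-related protein that promotes assembly of the carboxylase, fell at -2.28 and -1.59. The medians of this list were 0.03 and 0.10. The acetyl-CoA and citrate list had no call in the fetus or the mother, with medians of 0.26 over 13 and 0.06 over 14 genes. The mitochondrial fatty acid synthesis list had no call among 6 genes in either liver, with medians of 0.12 and -0.02, beside Mcat at 0.08 and -0.05.

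Markers of other cells in liver were read beside these values. Of 10 adipocyte markers, 5 were well above background in the fetus and 4 in the mother. Their summed log2 level was 13.4 in control and 13.6 to 13.7 in food-deprived fetus, and 11.6 in control and 12.4 to 12.7 in food-deprived mother. Cidea, a lipid droplet protein, and Nrg4, a secreted growth factor, rose in the mother, at 1.86 and 1.32 and at 2.53 and 2.08. All 7 measured Kupffer cell markers were well above background in every condition; in the mother 2 of 7 fell, Adgre1 and Cd5l, with a list median of -0.56 and a summed log2 level of 14.2 to 14.4 in control and 13.5 to 13.6 with food deprivation. Of the erythroid markers none was called in either response; their summed log2 level was 17.1 in control and 16.7 to 17.0 in food-deprived fetus. The part of these cells in the fetal and maternal responses was not tested.

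The genes nearest to Fasn, Acly and Acacb were found by the Euclidean distance of their log2 ratios on the 4 arrays, over genes measured in both livers. Nearest to Fasn were Sc5d at a distance of 0.62, Scd1 at 0.72, Serpina6 at 0.76, Fdps at 0.90 and Dhcr7 at 0.90. Sc5d, Fdps and Dhcr7 are enzymes of cholesterol synthesis, and Serpina6 is the plasma carrier of glucocorticoids. Among those nearest to Acly were 4732419C18Rik at 0.30, Acsl3 at 0.31, Fads1 at 0.33 and Lss at 0.40. Acsl3 activates fatty acids, and Lss is a further cholesterol enzyme. Nearest to Acacb were 4931408D14Rik at 0.38, Hsd17b7 at 0.39, Hsp90aa1 at 0.45, Srxn1 at 0.46 and Ocstamp at 0.48. Each of these 5 lay below 0 on both fetal arrays and above 0 on both maternal arrays, which the measure of likeness favours by its construction.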

How the data were processed

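Pooled liver RNA of 4 conditions was read on 4 two-colour arrays. Per the file headers, the deposited array files give each spot's linear intensity and local background, processed intensities after the scanner software's own background subtraction and dye normalisation, and a log10 ratio of red over green. Feature Extraction is version 9.5.1.1 in the headers and 9.5.3.1 in the submitters' processing notes. The deposited series table holds a linear ratio, which equalled red over green processed signal within rounding for 100% of 45018 spots on each array. In 2 of its columns the values carry a negative sign (column medians -0.92 and -0.88, against 0.94 and 0.88), which was dropped; its meaning stays unknown.

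From the deposited intensity values, log2 ratios were computed in R 4.3.3 with limma 3.58.1: normexp background correction with an offset of 50, which shrinks the ratios of dim spots, loess within each array with control spots at weight 0, outlier spots left out, and spots of a probe averaged. Levels per dye were made comparable with Aquantile. Ratios were turned to food-deprived over control. Of the gene probes, 22951 were named through a RefSeq accession (GRCm38.p6 table) and 18223 kept the file's name; Mcat was found by accession. The 9 genes, the lists and the rule for nearest genes were chosen with earlier results of these data known. Named besides the 9 genes are list members called in a comparison, and the 5 nearest genes of Fasn, Acly and Acacb, of which 1 is not reported here. Mlxipl, which the rule names through its control level, is given with its uncalled responses. Alternatives were processed signals, stained-spot replacement, median centring, no offset, other filters on dim probes, the mean over probes, kept outliers, each array alone and the series table. The small number of arrays limits the precision, beside the limits given in the closing section.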

Additional observations from a re-analysis of the deposited data

Results flagged for a closer look

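Acacb lay below 0 on both fetal arrays and above 0 on both maternal arrays, and its maternal minus fetal difference was 1.68. Mcat showed the opposite order, above 0 in the fetus and below 0 in the mother, but with a difference of only -0.13. Of the genes of the lists with opposite signs, only those whose difference passed the 2-fold rule are named. Elovl5, with a difference of 2.55, Cidea, with 2.32, Me1, with 1.99 for its own probe and 1.38 for the probe named Mod1, and Elovl2, with 1.32, were below 0 on both fetal and above 0 on both maternal arrays. Aldh1l1, with a difference of -1.51, Aco1, with -1.07, and Cd5l, with -1.06, were above 0 in the fetus and below 0 in the mother. The fetal Cd5l values were only 0.03 and 0.03, within the between-array SD of 0.15, and its maternal values were -1.01 and -1.05. None of these differences was tested, each condition being read as 1 pool.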

How the results depend on the processing

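No paired analysis was possible because no result comes from a test: the numbers 1 and 2 that the labels give the pooled samples go with the dye orientation, and were read as 1 pool per condition, which the labels do not settle. No value of the 9 genes in the fetus or mother changed sign under the 11 alternative settings. The mean over probes and the filters on dim probes cannot alter the value of a gene with 1 probe. With the scanner software's processed signals 5 of the 9 genes were called in the mother (Acly, Acss2, Fasn, Thrsp and Pnpla3) instead of 3, and likewise 5 with the deposited series table; in the fetus 6 were called instead of 4, with Acaca and Thrsp added. Over all genes the processed signals called more, 232 higher and 174 lower in the fetus and 661 higher and 803 lower in the mother, 494 and 709 in the difference, and 3566 and 3754 in the control levels (against 1665 and 1841), and with the series table there were 234 and 174 in the fetus and 664 and 812 in the mother. With median centring in place of loess, 2 genes were called in the fetus (Acss2 and Pnpla3) and 1 in the mother (Thrsp). The mean Fasn value was then -1.73 in the fetus and -1.85 in the mother, but the arrays lay far apart, at -0.48 and -2.98 and at -0.14 and -3.55, so 1 array of each pair missed 1.5-fold. The lost calls of fetal Acly and maternal Acss2 had means of -0.86 and -1.43 there, against -1.04 and -1.41. That setting left 68 higher and 23 lower genes in the fetus, 45 and 82 in the mother, and 67 and 349 in the difference, against 84 and 48, 252 and 303, and 192 and 274. Leaving out 1 array gave 3 to 4 genes called in the fetus, Acly being lost without array 1, and 3 to 4 in the mother, where Acacb was added without array 1; it gave 3 to 3 in the difference and 2 to 2 in the control levels. Over all genes, leaving out array 1 or array 2 called 0.748% or 0.875% in the fetus and 3.07% or 4.22% in the mother. The shares were 2.73% or 3.52% in the difference and 20.2% or 19.9% in the control levels. Limits: with pooled RNA no spread between animals is known. The length of food deprivation and stage are unknown here. Ratios of dim probes follow the background correction. Among them are Pnpla3, Acly, fetal Acaca, fetal Thrsp and the upstream probes of Acss2, Acaca and Acacb.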
